A study of Ovis aries with 2 samples.

Results

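The genes described here are those whose symbols start with UBE2, or with PSMA, PSMB, PSMC, PSMD or PSME and a digit. They are 60 of the 27054 genes counted in sheep testis cells, of which 22 are UBE2 genes, mostly ubiquitin-conjugating enzymes, and 38 are PSM genes, mostly proteasome subunits. PSMC3IP, a cofactor of meiotic recombination, and PSME3IP1, a protein that binds PSME3, carry a PSM symbol and are not proteasome subunits. Each of the 60 genes had at least 1 UMI in both libraries.

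Ubiquitin is activated by an E1 enzyme, handed to a conjugating enzyme (E2, the UBE2 genes) and joined to a target protein with the help of a ligase (E3). Chains of ubiquitin send the target to the proteasome, where the 19S particle (PSMC ATPases and PSMD subunits) unfolds it and the 20S barrel (PSMA outer rings, PSMB inner rings) cuts it; PSME proteins are other caps of the barrel. Spermatids shed histones, organelles and cytoplasm while the sperm head and tail are built, and germ cells of mammals have their own proteasome form with the alpha subunit PSMA8 in place of PSMA7.

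The transcripts of single cells were counted in 2 droplet libraries of testis from sheep aged 8 months, 1 labelled Control and 1 labelled ZEA0.75. The labels do not spell out ZEA, give no unit for 0.75, and do not say whether animals or tissue were exposed. ZEA is the usual abbreviation of zearalenone, an oestrogenic mold toxin, and the design text speaks of damage to the testis. With 1 library per group no test was possible, and differences between animals, tissue pieces and preparations cannot be told apart from the treatment. Levels are CPM, the UMIs of a gene summed over the cells of a class and scaled to a common total of all UMIs, with exact Poisson 95% intervals in brackets. Log2 ratios carry exact binomial 95% intervals. Both kinds of interval cover counting error only. Droplet 3' counts are not divided by gene length, and levels of different genes also depend on how each 3' end is annotated, so shares within a pair of genes are compared across classes and are not ratios of protein.

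The control library held 7030 barcodes and 53044981 UMIs and the ZEA library 8809 barcodes and 22148456 UMIs, with 15 barcodes in both. After filters 6811 and 8804 cells stayed, at a median of 4121 and 1405.5 UMIs. The listed genes took 1.12% of all control UMIs and 0.879% of all ZEA UMIs. Clusters were made without the listed genes and named from marker genes, which left 36.4% of control cells and 32.3% of ZEA cells unnamed. Round and elongating spermatids were the germ classes with at least 50 cells in both libraries. The round spermatid-like class had 1199 control cells (median 13296 UMIs, nearly all of clusters 5 and 9) and 337 ZEA cells (1576 UMIs, nearly all of cluster 2). The elongating spermatid-like class had 1935 control cells (6800 UMIs, mostly clusters 3 and 6) and 1013 ZEA cells (1774 UMIs, mostly cluster 11). Late spermatocyte-like cells, 968 in the control, numbered 4 in the ZEA library, and endothelial-like cells, 3207 in the ZEA library, numbered 23 in the control. Libraries, depth and cell makeup thus differ together. A further ZEA cluster of 370 cells (cluster 22, median 9753.5 UMIs) scored highest for round spermatid markers and stayed unnamed.

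The sources used here do not state how reads shared by close relatives, such as UBE2A and UBE2B, or by overlapping genes were counted. In NCBI RefSeq's table of the sheep assembly ARS-UI_Ramb_v3.0 all 60 symbols matched and 18 of the genes overlap another gene, among them PSMA8 (with SS18), PSMC1 (NRDE2), PSMD6 (ATXN7), PSME3 (AOC2), UBE2B (CDKL3), UBE2D4 (URGCP), UBE2T (LGR6) and UBE2N (a pseudogene). Their values are uncertain to that extent.

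Summed over the 60 genes, the level was highest in late spermatocyte-like cells and in the small Sertoli-like class of the control library. It was 13924 CPM in late spermatocyte-like, 10350.0 CPM in round and 9952 CPM in elongating spermatid-like control cells. In the ZEA library the same sum was 8766 CPM in round and 7896 CPM in elongating cells. The UBE2 and PSM genes parted within that sum. From late spermatocyte-like to round to elongating control cells the PSM sum was 10343, 7289.9 and 5841 CPM, lower at each step. Without PSMA6 the PSM sum was 9798, 4606 and 2921 CPM, a steeper fall. The UBE2 sum was 3581, 3060.1 and 4111 CPM, highest at the end, and UBE2J1 made that order. Without UBE2J1 it was 3451, 2255 and 2288 CPM, highest in late spermatocyte-like cells. In the ZEA library the PSM sum was 5977 CPM in round and 4718 CPM in elongating cells, and the UBE2 sum was 2789 and 3178 CPM. Of the 4 control classes with at least 50 cells, the late spermatocyte-like class held the highest level of 18 PSM and 7 UBE2 genes. The 7 include UBE2L6 only by a tie, since it was at 0 CPM in all 4 classes. The Sertoli-like class (112 cells, median 951.5 UMIs and 9.23% mitochondrial UMIs) held that of 17 PSM and 8 UBE2 genes. In this shallow class 3 UMIs equal 20.2 CPM. PSMD5, UBE2G1 and UBE2O, at 6.73 CPM, and PSMD13 and UBE2E3, at 13.5 CPM, were highest there on fewer counts than that. The like shares of all genes are not given here, so these counts say nothing particular to the listed genes.

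**Figure D1:**
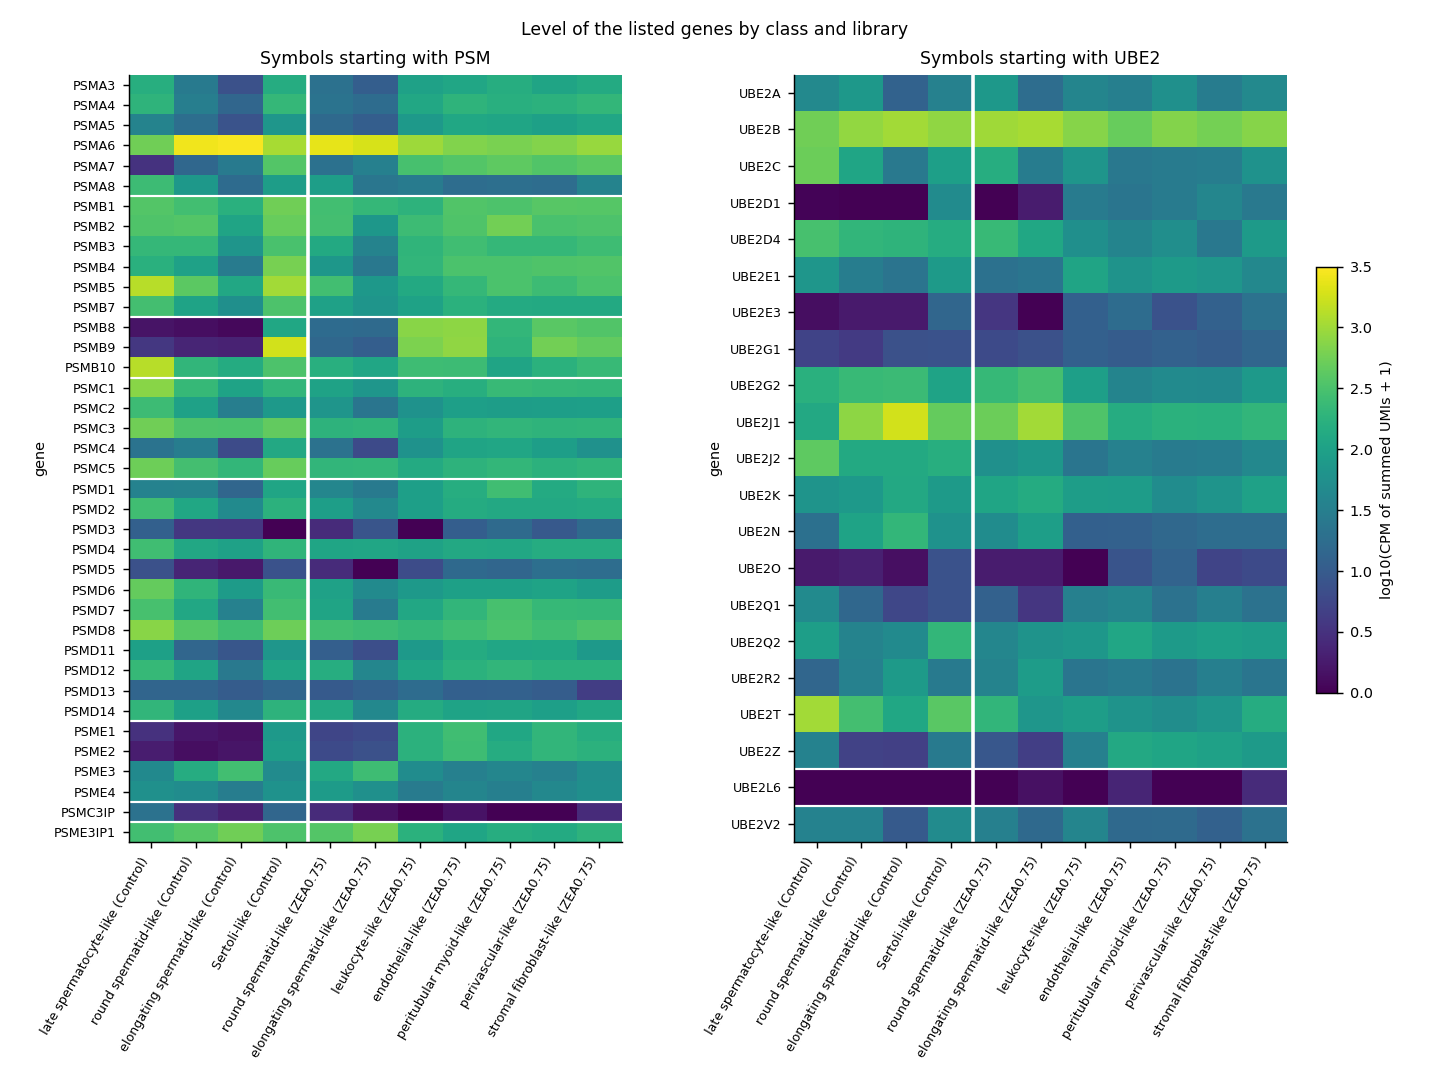
Level of the listed genes (rows, grouped by role with white lines) in the classes with at least 50 cells (columns, control to the left and ZEA to the right of the white bar), as log10(CPM + 1). PSMA6, UBE2B and UBE2J1 are the brightest rows in spermatids, PSMB5 and PSMB10 stand out in late spermatocyte-like cells, and PSMB8, PSMB9, PSME1, PSME2 and PSMA7 are dark in control spermatids and bright in somatic cells.

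Among the conjugating enzymes, UBE2J1, an E2 anchored in the endoplasmic reticulum that mice need to form normal spermatids, had the steepest increase over the germ stages. UBE2J1 (ENSOARG00000012766) was at 129 CPM (123 to 136) in late spermatocyte-like, 805 CPM (792 to 819) in round and 1823 CPM (1802 to 1844) in elongating control cells. Ordered by their summed elongating spermatid markers, the control clusters 9 and 5 (round) and 11, 6 and 3 (elongating) held UBE2J1 at 534, 1064, 1089, 1643 and 2314 CPM. In the ZEA library UBE2J1 was at 524 CPM (483 to 568) in round and 1039 CPM (998 to 1081) in elongating cells, the same order at lower levels by class. Within cluster 11, which held most elongating ZEA cells, it was at 1015 CPM in ZEA and 1089 CPM in control cells. That is a log2 ratio of -0.10 (-0.28 to 0.08), and in cluster 3 the ratio was -0.61 (-0.88 to -0.36). UBE2J2 (ENSOARG00000005616), its relative in the same membrane, ran the other way at first, with 434 CPM in late spermatocyte-like and 135 CPM in round control cells. The UBE2J1 share of the pair's UMIs was 23.0% (21.9 to 24.0, Clopper-Pearson 95%) in late spermatocyte-like, 85.7% (85.1 to 86.2) in round and 93.1% (92.9 to 93.4) in elongating control cells. The ZEA shares were 90.4% (88.0 to 92.6) in round and 93.6% (92.6 to 94.5) in elongating cells, above the control share in round cells and within counting error of it in elongating cells.

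UBE2N, which builds lysine-63-linked chains, and UBE2R2, a partner of cullin ligases, were also highest late. UBE2N (ENSOARG00000020093) was at 18.9 CPM in late spermatocyte-like, 105 CPM in round and 205 CPM in elongating control cells. Cluster 3, the elongating control cluster with the highest elongating marker sum, held UBE2N at 331 CPM, and cluster 4, an unnamed shallow control cluster of 520 cells whose enriched markers were OAZ3, SPEM1, ODF1 and CABS1, held it at 616 CPM. UBE2N was at 49.3 CPM in round and 91.6 CPM in elongating ZEA cells. UBE2R2 was at 13.2, 33.6 and 80.8 CPM over the 3 control stages and at 35.5 and 83.9 CPM in round and elongating ZEA cells, so its levels in the libraries lay within their counting intervals. UBE2V2, the catalytically inactive partner of UBE2N, was lowest in elongating cells. It was at 34.4 CPM in late spermatocyte-like, 35.1 CPM in round and 8.83 CPM in elongating control cells.

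UBE2B and UBE2A are near-identical enzymes that ubiquitinate histones, and UBE2B is needed for sperm formation in mice. UBE2B was at 555 CPM (542 to 569) in late spermatocyte-like, 854 CPM in round and 1033 CPM in elongating control cells, and at 998 and 1086 CPM in round and elongating ZEA cells. UBE2A peaked in round cells, with 44.0, 73.4 and 11.6 CPM over the control stages and 72.7 and 16.6 CPM in the ZEA spermatids. UBE2B took 92.1% of the pair in round and 98.9% in elongating control cells, and 93.2% and 98.5% in the ZEA library. UBE2B was high outside the germ line too, where endothelial-like ZEA cells held 479 CPM and stromal fibroblast-like ZEA cells 721 CPM.

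UBE2T and UBE2C were highest in late spermatocyte-like cells. UBE2T, the E2 of the Fanconi anaemia DNA repair pathway, was at 1048 CPM (1029 to 1067) there, 287 CPM in round and 119 CPM in elongating control cells. In the ZEA library it was at 202 CPM in round and 68.6 CPM in elongating cells. UBE2C, the partner of the anaphase-promoting complex in cell division, was at 509.7, 113 and 24.7 CPM over the control stages and at 151 and 28.5 CPM in the ZEA spermatids. Both were lower at each step in the control and from round to elongating cells in the ZEA library. Cluster 13, an unnamed control cluster of 150 cells with SYCP1, SYCP2, SMC1B, HORMAD1 and TEX101 enriched, held UBE2T at 1001 CPM and UBE2C at 114 CPM.

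Other E2 genes were low in spermatids. UBE2D1, a broadly acting E2, had 0 UMIs in round and elongating control cells, which allows up to 0.174 and 0.188 CPM, against 22.1 CPM in endothelial-like ZEA cells. UBE2Z, which takes ubiquitin from the E1 enzyme UBA6, was at 314 CPM in 35 spermatogonia-like control cells, 35.1 CPM in late spermatocyte-like, 3.89 CPM in round and 3.63 CPM in elongating control cells. UBE2E1 was at 318 CPM in the spermatogonia-like cells, 29.6 CPM in round and 21.3 CPM in elongating control cells. UBE2L6, the E2 of the interferon-induced ISG15, had 11 UMIs in endothelial-like ZEA cells, or 1.28 CPM, and 0 in the late spermatocyte-like, round and elongating control cells. UBE2O and UBE2E3 held 0.376 and 0.815 CPM in elongating control cells, and UBE2Q1 and UBE2G1 held 4.57 and 6.33 CPM. At the other end UBE2D4, UBE2G2 and UBE2K held 188, 244 and 127 CPM there, and UBE2Q2 held 47.0 CPM.

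**Figure D2:**
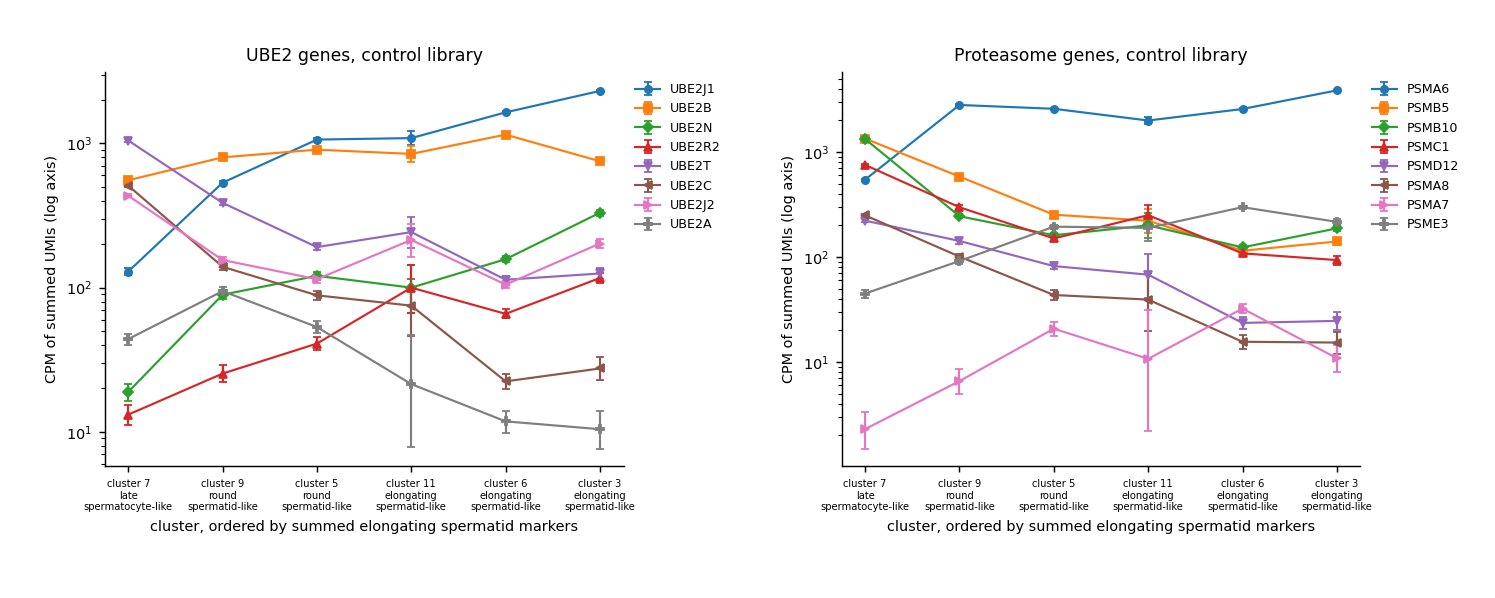
CPM (log axis) of 8 UBE2 genes (left) and 8 PSM genes (right) in the named late spermatocyte-like, round and elongating spermatid-like control clusters of at least 50 control cells, ordered by their summed elongating spermatid markers, with exact Poisson 95% intervals. UBE2J1 climbs from left to right, UBE2N and UBE2R2 climb with 1 step down each, UBE2C, PSMA8 and PSMB5 descend up to cluster 6, and PSMA6 stays between 1992 and 3858 CPM in the spermatid clusters.

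The alpha ring subunits split by cell type. PSMA7 (ENSOARG00000014683) was at 351 CPM (284 to 430) in the 35 spermatogonia-like control cells and at 2.30 CPM in late spermatocyte-like cells. It was at 13.8 CPM in round and 25.8 CPM in elongating control cells, and at 367 CPM (354 to 380) in endothelial-like ZEA cells. PSMA8 (ENSOARG00000007105), the alpha subunit of the testis proteasome, was at 133 CPM in spermatogonia-like, 249 CPM (240 to 258) in late spermatocyte-like, 71.5 CPM in round and 15.9 CPM in elongating control cells. PSMA8 thus took 99.1% (98.7 to 99.4) of the pair's UMIs in late spermatocyte-like, 83.8% in round and 38.1% in elongating control cells. In the ZEA library the share was 82.8% (75.1 to 88.9) in round, 41.4% (32.8 to 50.4) in elongating and 4.37% (3.70 to 5.13) in endothelial-like cells. ZEA cluster 22, unnamed, held a share of 97.2% (95.6 to 98.3), above that of round control cells. The shares of each named spermatid class overlapped between libraries within counting error, but those within shared clusters did not all do so. In cluster 1, unnamed, the share was 94.7% (74.0 to 99.9) in control and 58.9% (49.7 to 67.6) in ZEA cells. In the elongating clusters it was 78.6% (49.2 to 95.3) and 44.2% (34.9 to 53.9) in cluster 11 and 58.5% (49.0 to 67.5) and 25% (3.19 to 65.1) in cluster 3, and cluster 6, nearly all control cells, held 32.6%.

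PSMA6, another alpha subunit, had an outlying level in spermatids. It was at 545 CPM in late spermatocyte-like, 2684 CPM in round and 2920.0 CPM in elongating control cells, and at 2307 and 1946 CPM in the ZEA spermatids. The other alpha genes were low in the same cells, where PSMA3, PSMA4 and PSMA5 were at 25.6, 30.1 and 17.6 CPM in round and 6.33, 13.4 and 6.77 CPM in elongating control cells. PSMA6 took 46.3% of all PSMA UMIs in late spermatocyte-like, 94.4% in round and 97.7% in elongating control cells, and 93.3% and 95.5% in the ZEA spermatids. In endothelial-like ZEA cells it took 45.6%, and in Sertoli-like control cells 55.7%. Leukocyte-like cells held 60.6% in the ZEA library and 71.7% in the control, the latter from 44 cells. PSMA6 was thus the highest alpha gene in these somatic classes too. Whether the spermatid UMIs counted as PSMA6 come from the subunit's usual transcript was not tested.

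Constitutive beta subunits were lower in elongating than in round cells in both libraries. PSMB5 (ENSOARG00000019380), which carries the chymotrypsin-like activity, was at 1340.2 CPM (1319 to 1362) in late spermatocyte-like, 413 CPM in round and 124 CPM in elongating control cells. It was at 273 and 72.4 CPM in the ZEA spermatids. PSMB1, PSMB2, PSMB3, PSMB4 and PSMB7 ranged from 100.2 to 361 CPM in round and from 27.8 to 165 CPM in elongating control cells. PSMB1, a structural subunit, kept the highest elongating level of these genes, 165 CPM in control and 212 CPM in ZEA cells.

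The 3 immunoproteasome subunits, which replace catalytic beta subunits in cells exposed to interferon, did not share a pattern. PSMB10 was highest in late spermatocyte-like cells among the 3 control stages, at 1328 CPM (1307 to 1350), with 202 CPM in round and 143 CPM in elongating cells. It was not particular to them: cluster 13 held 2926 PSMB10 UMIs of 2426485, and late spermatocyte-like cells 15043 of 11325087. PSMB10 was at 163 and 118 CPM in the ZEA spermatids and 247 CPM in endothelial-like ZEA cells. PSMB8 had 6 UMIs in late spermatocyte-like and 6 in round control cells, or 0.530 and 0.348 CPM, and PSMB9 was at 2.74 and 1.34 CPM there. In endothelial-like ZEA cells PSMB8 was at 807 CPM (788 to 826) and PSMB9 at 839 CPM, and in leukocyte-like ZEA cells they were at 747 and 643 CPM. Sertoli-like control cells held PSMB9 at 1831 CPM (1620 to 2062) and PSMB8 at 121 CPM, so PSMB9 stood apart from PSMB8 in that class. PSMB8 took 0.0395% of the UMIs of PSMB8 and PSMB5 in late spermatocyte-like control cells and 78.9% in endothelial-like ZEA cells.

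In ZEA spermatids PSMB8 was at 15.6 CPM in round and 15.3 CPM in elongating cells, far above the control value. Those levels were 1.93% and 1.90% of the endothelial-like level. PSMB9 was at 1.65% and 1.22%, PSME1 at 1.62% and 1.92% and PSME2 at 2.02% and 2.49% of their endothelial-like levels. The summed endothelial markers stood at 1.21% and 1.79% in the same cells, in the same range. The elongating spermatid markers, in turn, stood at 12.7% of their elongating level in endothelial-like ZEA cells and at 24.7% in Sertoli-like control cells. UBE2J1, UBE2G2 and PSME3 were at 14.1%, 12.6% and 12.5% of their elongating level in endothelial-like ZEA cells, close to that marker share, and PSMA6 and UBE2B at 34.8% and 44.1%.

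**Figure D3:**
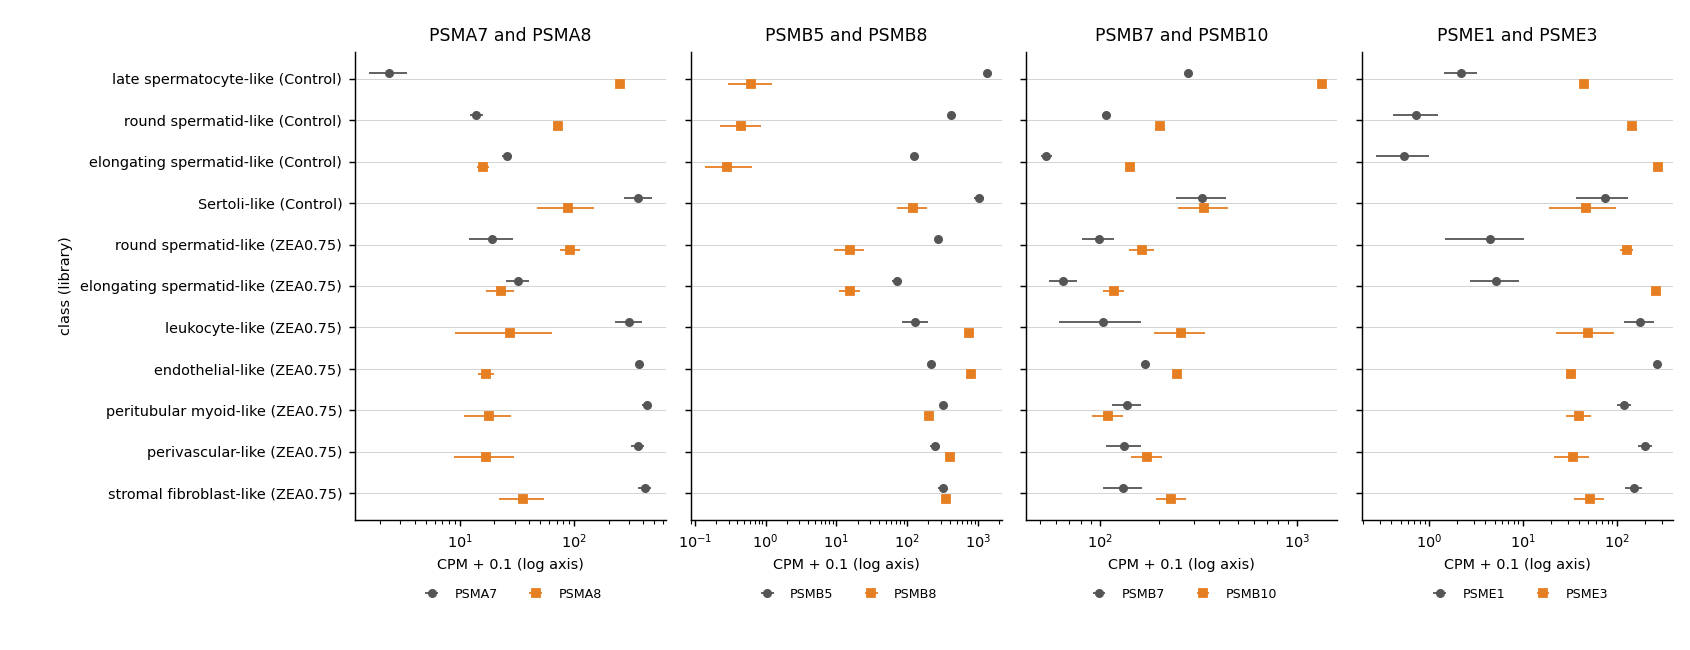
CPM + 0.1 (log axis) of 4 pairs of alternative subunits or caps by class and library, with exact Poisson 95% intervals. PSMA8 lies above PSMA7 in late spermatocyte-like and round cells and below it in somatic classes. PSMB8 lies above PSMB5 in endothelial-like, leukocyte-like and perivascular-like cells and close to it in stromal fibroblast-like cells. PSME3 lies above PSME1 in all germ classes shown.

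Transcripts of the 19S particle were highest in late spermatocyte-like cells among the 3 control stages. The summed level of the 17 genes for 19S subunits or their chaperones was 4734 CPM in late spermatocyte-like, 2189.7 CPM in round and 1304 CPM in elongating control cells, and 1595 and 1118 CPM in the ZEA spermatids. PSMC1 (ENSOARG00000003433), an ATPase, was at 753 CPM in late spermatocyte-like, 222 CPM (215 to 229) in round and 107 CPM in elongating control cells, and at 102 CPM (84.5 to 122) and 69.0 CPM in the ZEA spermatids. PSMC3, another ATPase, held its level better: it was at 554 CPM, then 337 and 324 CPM in control spermatids and 181 and 197 CPM in ZEA spermatids. PSMD4, a ubiquitin receptor, was at 263, 126 and 100.3 CPM over the control stages, and PSMD14, the enzyme that removes the ubiquitin chain, at 203, 98.0 and 41.6 CPM. PSMD8, a lid subunit, had the highest level of the PSMD genes in each of the 3 control stages, at 751, 376 and 269 CPM. PSMD5, an assembly chaperone, was at 59.2 CPM in spermatogonia-like and 1.34 CPM in round control cells. The other PSMD genes ranged from PSMD3 at 2.67 CPM to PSMD6 at 197 CPM in round and from 2.57 to 82.5 CPM in elongating control cells.

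Among the caps, PSME3 was highest in elongating spermatid-like cells of the classes with at least 50 cells, in both libraries. The pair PSME1 and PSME2 was low in late spermatocyte-like cells and spermatids and high in endothelial-like ZEA cells. PSME3, the nuclear cap PA28 gamma, was at 44.9 CPM in late spermatocyte-like, 144 CPM in round and 273 CPM in elongating control cells, and at 128 and 259 CPM in the ZEA spermatids. Endothelial-like ZEA cells held PSME3 at 32.4 CPM and stromal fibroblast-like ZEA cells at 52.1 CPM, so the late spermatocyte-like level was not above all somatic classes. In spermatogonia-like control cells PSME3 had 19 UMIs of 270274. PSME1 and PSME2, the interferon-induced PA28 pair, were at 174 and 96.2 CPM in spermatogonia-like control cells and at 2.12 and 0.883 CPM in late spermatocyte-like cells. They were at 267 and 257 CPM in endothelial-like ZEA cells. PSME4, the cap PA200 linked to histone removal in spermatids, was at 55.5, 49.3 and 29.6 CPM over the control stages and at 83.1 and 56.2 CPM in the ZEA spermatids. The PSME3 share of PSME3 and PSME4 was 44.7%, 74.5% and 90.2% over the control stages, and 60.7% (54.2 to 66.8) and 82.1% (79.2 to 84.8) in the ZEA spermatids, below the control share at both stages by class. Within shared clusters this did not hold: the share was 70.7% (59.0 to 80.6) in control and 81.5% (78.4 to 84.4) in ZEA cells of cluster 11, 87.5% and 84.6% (65.1 to 95.6) in cluster 3, 31.4% and 30.8% in cluster 0, and 52.1% and 51.4% in cluster 1.

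The 2 genes with a PSM symbol and another function had their own patterns. PSMC3IP was at 56.5 CPM in cluster 13, 19.9 CPM in late spermatocyte-like and 2.09 CPM in round control cells. PSME3IP1 followed PSME3 in spermatids, with 382 and 552 CPM in round and elongating control cells and 362 and 613 CPM in ZEA cells, yet was already at 271 CPM in late spermatocyte-like cells.

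Set out as ratios, 51 of the 60 genes had enough UMIs to compare round with late spermatocyte-like control cells (at least 50 UMIs over both classes, and a UMI in 5% or more of the cells of 1 class). At least 2-fold higher in round cells were 6, against 31.7% of all 8696 genes compared, and at least 2-fold lower were 25, against 36.8%. The 6 were UBE2J1 (log2 ratio 2.64), PSMA7 (2.59), UBE2N (2.48), PSMA6 (2.30), PSME3 (1.69) and UBE2R2 (1.35). The lowest were PSMC3IP (-3.25), UBE2Z (-3.17), PSMD11 (-2.86) and PSMB10 (-2.72). The median ratio was -0.999 for the listed genes and -0.46 for all genes compared. With the median of all genes set to 0, the counts were 9 higher and 15 lower.

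From round to elongating control cells, 48 genes could be compared. At least 2-fold higher were UBE2R2 (1.27) and UBE2J1 (1.18), 2 genes, where 10.2% of all 7713 genes were. At least 2-fold lower were 22, or 17 of 31 PSM and 5 of 17 UBE2 genes, where 32.2% of all genes were. The median was -1.17 for the PSM genes, 0.00 for the UBE2 genes and -0.54 for all genes. By role, 4 of 6 alpha, 4 of 6 constitutive beta and 9 of 15 19S genes were at least 2-fold lower. The lowest with at least 200 UMIs were UBE2A (-2.66), PSMC4 (-2.44), UBE2C (-2.19) and PSMD12 (-2.17). With the median of all genes at 0, the split was 7 higher and 14 lower, and genes slightly lower in elongating cells before, such as PSMB10, PSMC3, PSMD4, PSMD8, UBE2D4 and UBE2J2, came out higher.

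The ZEA library gave a like picture of this stage step. Its ratios use no counts of control cells, but the clusters and their names were made from both libraries together. There 41 genes could be compared, of which 2 were at least 2-fold higher, UBE2R2 (1.24) and PSME3 (1.01), and 15 at least 2-fold lower, against 11.8% and 26.3% of all 4737 genes. With the median of all genes at 0 these counts were 6 and 12. Of the 41 genes, 35 (85.4%) had the same direction in both libraries, as had 87.4% of the 4700 genes compared in both. All 15 that were 2-fold lower in the ZEA library were so in the control. Spearman's rho of the ratios was 0.95 across the 41 genes and 0.91 across the 4700; genes of 1 library share its cells and depth and are not replicates. The 6 genes with another direction were PSMA6, PSMC3, PSMC5, PSMD4, UBE2E1 and UBE2J2, all with control ratios between -0.47 and 0.12.

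**Figure D4:**
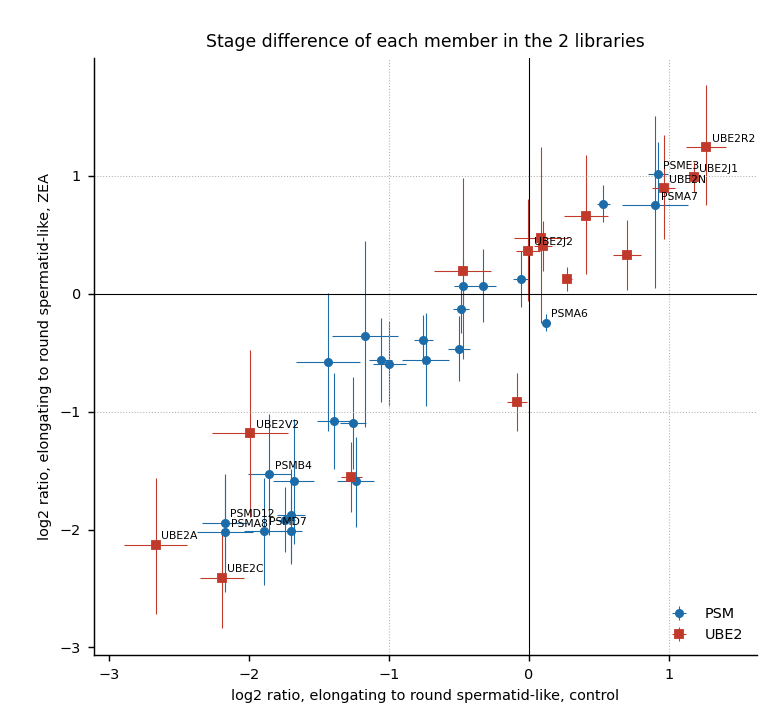
Log2 ratio of elongating to round spermatid-like cells for the 41 genes compared in both libraries, control on the x axis and ZEA on the y axis, with exact 95% counting intervals; dotted lines mark 2-fold. The points run along the diagonal from UBE2A and UBE2C at the lower left to UBE2R2 and UBE2J1 at the upper right.

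Against endothelial-like cells, the 1 somatic class compared here, round spermatid-like ZEA cells had a higher UBE2 sum and a lower PSM sum. The UBE2 sum was 2789 CPM in round spermatid-like and 1405 CPM in endothelial-like ZEA cells, and the PSM sum 5977 and 7921 CPM. Without PSMB8, PSMB9, PSME1 and PSME2 the PSM sum was 5938 and 5751 CPM. Without PSMA6 alone it was 3669 and 7244 CPM. That the sums without the 4 genes were near equal thus also rests on PSMA6, at 2307 and 677 CPM. Of 52 genes compared with endothelial-like ZEA cells, 14 were at least 2-fold higher (40.2% of all 6870 genes) and 17 at least 2-fold lower (37.9%). The higher group held 9 of 18 UBE2 genes and 5 of 34 PSM genes, and the lower group 5 UBE2 and 12 PSM genes. Highest were UBE2D4 (2.62), UBE2C (2.62), UBE2G2 (2.58) and PSMA8 (2.45). Lowest were PSME1 (-5.95), PSMB9 (-5.92), PSMB8 (-5.70) and PSME2 (-5.63). The median was 0.90 for the UBE2, -0.61 for the PSM and 0.24 for all genes. With the median of all genes at 0 the counts were 10 higher and 20 lower. Both classes had a like depth, 1576 and 1720.0 UMIs per cell at the median.

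Between the libraries most of the listed genes lay within 2-fold. In round spermatid-like cells 48 could be compared, of which 1 was at least 2-fold higher in the ZEA library and 3 at least 2-fold lower, against 8.97% and 7.25% of all 7584 genes. With the median of all genes at 0 these counts were 0 and 4. The median was -0.27 for the listed genes, -0.36 for the PSM genes, -0.05 for the UBE2 genes and 0.05 for all genes, and 25 of the 31 PSM genes lay below 0. In elongating spermatid-like cells 45 could be compared, with 0 higher and 1 lower by 2-fold, against 9.15% and 5.04% of all 5813 genes, and a median of 0.03 against 0.09. No p-value exists for any of these values.

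The genes past 2-fold were UBE2J2, UBE2N, PSMC1 and UBE2Z. UBE2J2 was at 135 CPM in control and 55.4 CPM in ZEA round cells, a log2 ratio of -1.28 (-1.66 to -0.92), and at 134 and 71.2 CPM in elongating cells, a ratio of -0.92. UBE2N was lower in the ZEA library at both stages, by ratios of -1.10 in round and -1.16 (-1.37 to -0.97) in elongating cells. PSMC1 had a ratio of -1.12 (-1.40 to -0.85) in round and -0.63 in elongating cells. UBE2Z had 67 control and 9 ZEA UMIs in round cells, and its ratio of 1.00 (-0.19 to 2.01) was not told apart from 0 by the counts. PSMD1 (0.95) and PSME4 (0.93) came nearest to 2-fold higher in elongating ZEA cells, and PSME4 had a ratio of 0.75 in round cells. Within cluster 11, which held most elongating ZEA cells, PSMD1 had -0.01 and PSME4 -0.42, so neither was higher there. In cluster 3 PSME4 had 0.62 (-1.28 to 2.00).

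These values depended on which cells stood for a stage. With ZEA cluster 22 in place of the round class, UBE2J2 had a ratio of -0.05 and PSMC1 of 0.66, now higher in the ZEA library, while UBE2N had -1.49. Cluster 22 held more late spermatocyte marker UMIs (2500.2 CPM) than the round control class (1500.3 CPM). With cluster 22, 13 of 50 listed genes were at least 2-fold higher and 5 lower, against 21.8% and 15% of all 8001 genes.

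Within the 4 clusters that held at least 50 cells of each library, 2 of them unnamed, the same cluster could be compared across libraries. In clusters 0, 1, 3 and 11 UBE2J2 was lower in the ZEA library by ratios of -0.79, -2.03, -1.10 and -1.58. PSMB5 had -1.35, -0.76, -1.57 and -1.58, UBE2T had -0.97, -0.72, -1.82 and -1.80, and PSMC2 had -1.73, -1.27, -1.22 and -1.11. Of the 33 listed genes compared in all 4 clusters, 12 were below 0 in each and 4 above 0 in each, which were UBE2B, UBE2G2, UBE2K and PSME3IP1. The like shares of all genes are not given here, so whether 12 and 4 stand out is not known. The median ratio of all genes was -0.04, -0.06, 0.05 and -0.11 in the 4 clusters. UBE2B had 0.82, 0.36, 0.18 and 0.34, and PSME3IP1 had 0.69, 0.24, 0.53 and 0.91. UBE2N, lower by class, had only -0.03, -0.47, -0.11 and -0.28. The late spermatocyte markers were also lower in ZEA cells of each cluster, at 1753 against 2189 CPM, 1359 against 2051 CPM, 366 against 428 CPM and 423 against 1014 CPM, and their part in these ratios was not tested. In cluster 0, 6 of 38 listed genes were at least 2-fold lower and 0 higher, against 11.1% and 6.59% of genes, and in cluster 1, 4 of 34 were lower and 2 higher, against 7.65% and 8.18%. In cluster 11, the larger of the 2 named clusters, 10 of 38 listed genes were at least 2-fold lower and 1 higher, against 12.8% and 6.52% of genes. In cluster 3 the counts were 6 lower and 2 higher (PSMA7 and PSMD12) of 39, against 6.67% and 12.9%, with 51 ZEA cells behind them. Some ratios there rest on 1 to 4 ZEA UMIs (PSMC2 1 UMI, UBE2T 3 and PSMB5 4), and PSMD1 and UBE2E1, at 0 ZEA UMIs against 68 and 79 control UMIs, have no call, since 3 counts at this depth exceed their control levels.

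**Figure D5:**
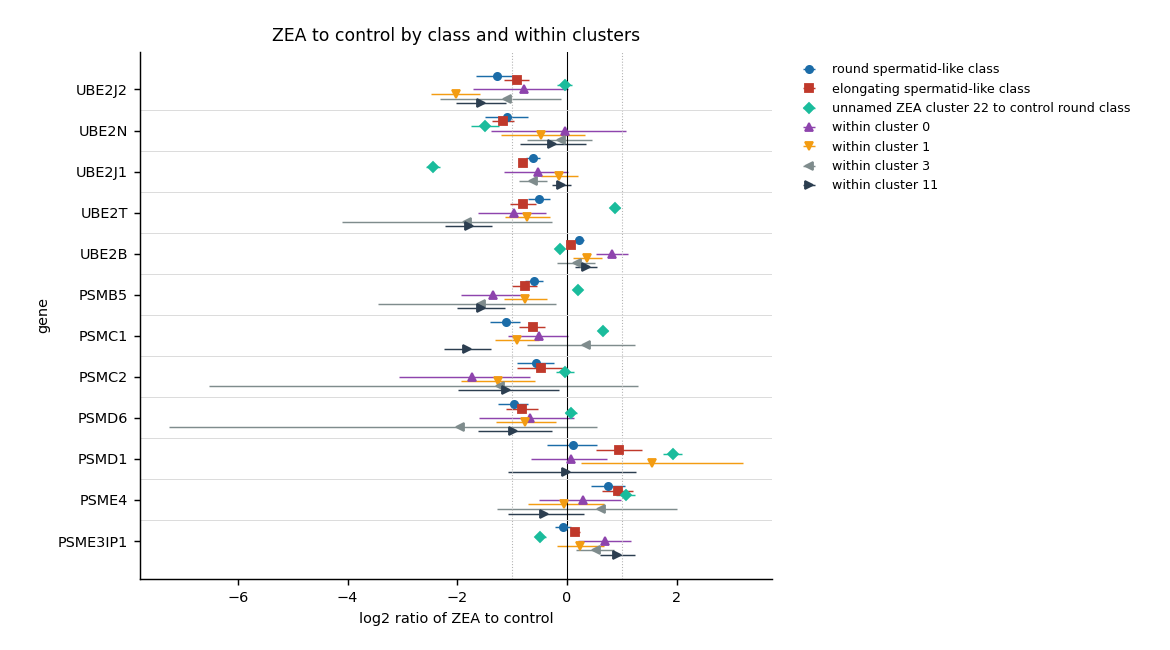
Log2 ratio of ZEA to control for 12 genes by class, for ZEA cluster 22 against the control round class, and within 4 clusters shared by the libraries, with exact 95% counting intervals; PSMD1 in cluster 3, at 0 ZEA UMIs, is not drawn, and dotted lines mark 2-fold. UBE2J2, UBE2T and PSMB5 lie left of 0 in every shared cluster while UBE2J2 is at -0.05 and UBE2T right of 0 for cluster 22, and UBE2N lies near 0 in the shared clusters.

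Of 53 other genes of the pathway listed with the members (ubiquitin precursors, E1 enzymes, assembly factors, shuttles, deubiquitinases and ligases), 48 had a symbol in the files. From late spermatocyte-like to round control cells 12 of 40 were at least 2-fold higher and 14 lower, against 31.7% and 36.8% of all genes. From round to elongating control cells 3 of 38 were higher and 11 lower, against 10.2% and 32.2%. Both pairs of counts lay near the shares of all genes. KLHL10, a cullin ligase adaptor of spermatids, was at 93.8 CPM in late spermatocyte-like and 1020.04 CPM in round control cells. CDC34, an E2 whose symbol lacks the UBE2 prefix, was at 226, 506 and 1449 CPM over the control stages, and the deubiquitinase UCHL5, which sits on the 19S particle, at 26.5, 103 and 233 CPM. POMP, which assembles the 20S barrel, was at 1332, 1016 and 319 CPM. Between libraries 3 of 38 were at least 2-fold higher and 2 lower in round ZEA cells, and 2 of 32 higher and 1 lower in elongating ZEA cells, against 8.97%, 7.25%, 9.15% and 5.04% of all genes in the same order.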

How the data were processed

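Single-cell RNA of 1 control and 1 ZEA testis library was analysed. The values deposited by the authors are whole UMI counts for each gene in each barcode, with no normalization. Per the submitters' processing notes, both libraries went through Cell Ranger 3.1.0 with STAR, while version 5.0.0 stands in the control file header and 3.1.0 in the ZEA one, so software and group cannot be told apart. The sources used here name no genome build. The number of columns of other samples was 0.

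Cells with at least 500 UMIs, 200 genes and at most 20% mitochondrial UMIs were kept. Scrublet in scanpy 1.11.5 removed 198 control (2.82%) and 1 ZEA barcode (0.0114%), a share too small to take the caller as having worked, so doublets among ZEA cells cannot be taken as removed. After scaling each cell to 10000 and taking logs, 2000 variable genes were chosen and the 5 listed genes among them dropped. Leiden clustering (igraph 0.11.9, resolution 1, 30 components, 15 neighbours, no integration) gave 26 clusters. A cluster was named when a marker list had a mean z of at least 1, led the next list by 0.2 and had at least 3 enriched markers (20 CPM and 1.5 times the other clusters), with limits on depth and on small RNAs among its 10 leading genes. This named 17 clusters.

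UMIs were summed per class and library and scaled to CPM. Classes of at least 50 cells in both arms were compared, and a gene entered with 50 or more UMIs over both arms and a UMI in 5% or more of the cells of an arm. A 2-fold ratio was the call, and a count of 0 was set to 3 counts, with the ratio at 0 (no call) where 3 counts lay beyond the other level. With 1 library per group no test was made. The interval and ratio code was tested on simulated data.

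The members, role groups, other pathway genes and naming rule were chosen with earlier results of these data known. Named genes were, per comparison, the 4 highest and 4 lowest ratios with at least 200 UMIs, the highest member of each role group per germ stage, and a listed set; of this set PSMB6, UBE2D2, UBE2D3, UBE2M, UBE2U and UBE2V1 matched no symbol. PSMA3, PSMA4, PSMA5, PSMB3, PSMB4, PSMC2, PSMC5, PSMD1, PSMD3, PSMD5, PSMD6, UBE2E1, UBE2E3, UBE2G1, UBE2L6, UBE2O, UBE2Q1 and UBE2Q2 were named after their values were seen. Of the other pathway list PSMG4, SEM1, UCHL3 and CUL1 are not analysed here. Some further genes are not reported here. Alternatives were other cell, gene and scaling choices. No sequences are shown, since no sequence table of the files' build was used here.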

Additional observations from a re-analysis of the deposited data

How the results depend on the processing

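No paired analysis was possible because each group has 1 library. Counts of listed genes at least 2-fold apart are given by comparison, for alternatives that moved them by over 1.5 times. ZEA to control, round cells (as reported 1 higher and 3 lower): higher were 0 with at least 200 UMIs per gene, with the free RNA rule (25% of the highest class), with the listed genes clustered on, with median scaling and with 500 UMIs per cell; 6 without the low-count filter; 5 with unnamed clusters in their best class. Lower were 7 with doublets kept and 6 at 500 UMIs per cell. ZEA to control, elongating cells (as reported 0 and 1): higher were 8 without the filter, 1 with the listed genes clustered on and 6 with unnamed clusters placed. Lower were 8 in cells of at least 5000 UMIs, 4 with the listed genes clustered on, and 2 with doublets kept, without the filter, with median scaling, at 500 UMIs per cell and with unnamed clusters placed. Elongating to round, control (as reported 2 and 22): higher were 5 in cells of at least 5000 UMIs and 7 with median scaling. Lower were 14 with the free RNA rule, 14 with median scaling and 12 at 500 UMIs per cell. Elongating to round, ZEA (as reported 2 and 15): higher were 0 with doublets kept, 6 with median scaling and 5 with unnamed clusters placed. Lower were 9 with at least 200 UMIs per gene, 3 at 500 UMIs per cell and 23 with unnamed clusters placed. Round to late spermatocyte-like (as reported 6 and 25): higher were 3 and lower 15 at 500 UMIs per cell, and lower 15 with median scaling. Round to endothelial-like (as reported 14 and 17): higher were 5 at 500 UMIs per cell. Settings chosen after seeing the data were cluster 22 as round (13 and 5 for ZEA to control; 7 and 26 for elongating to round in ZEA), the deepest elongating control cluster alone (4 higher), and clusters 3 (2 and 6) and 11 (1 and 10) alone in both libraries. PSMC1 in round cells turned from -1.12 to 0.33 with unnamed clusters placed and to 0.66 with cluster 22. The cause was not tested, except that thinning and stricter filters let fewer genes enter.

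Named genes past 2-fold stayed so under every alternative run for 9 of 13 in elongating to round control cells, 7 of 11 in ZEA, 16 of 19 in round to late spermatocyte-like and 16 of 23 in round to endothelial-like cells. For ZEA to control this held for 0 of 4 in round and 0 of 1 in elongating cells. ZEA germ classes have a median of 1576 and 1774 UMIs per cell, so low genes such as UBE2Z and PSMC4 rest on few counts.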
